A study of Rattus norvegicus with 11 samples.

Results

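Genes that interferons induce, together with genes that carry and present antigen peptides, were described in ventricular myocytes of adult rats, the contractile cells of the heart. The 32 genes were taken by symbol from the authors' deposited table of a comparison of females with males. Of these, 30 were in that table of 17257 genes, and Ifi44l and Gbp4 were not in it. Reads were counted for 29, since Tap2 was listed at 0. The animals were wild-type Sprague Dawley rats aged 3 to 4 months, and neither sex was treated. Hearts were perfused on a Langendorff apparatus to free the cells, which were held on culture dishes for 45 minutes and frozen. The 6 male and 5 female libraries were biological replicates per the labels. In sex the groups differed, and strain, genotype, age and handling were shared.

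Interferons are secreted proteins that warn cells of infection. Type I interferons act through JAK kinases and a factor complex that holds STAT2 and IRF9, which binds a short element in the promoters of their targets, the interferon-stimulated response element (ISRE). Type II interferon acts on a palindrome called the GAS element, and it is a strong inducer of the guanylate-binding proteins. The induced genes include RNA sensors, factors that amplify the response and proteins that block viral replication. Myocytes, endothelial cells, fibroblasts and resident macrophages of the heart can all run this programme.

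The 3 genes that passed the authors' test, Gbp2, Gbp5 and Ifi44, each held an ISRE core close to the annotated transcript start. Their sequences are shown for that reason. They are the 250 bases before the start in the RefSeq promoter table of the assembly GRCr8, read from 5′ to 3′ on the strand of the gene, with each match to the ISRE core in capitals.
Gbp2: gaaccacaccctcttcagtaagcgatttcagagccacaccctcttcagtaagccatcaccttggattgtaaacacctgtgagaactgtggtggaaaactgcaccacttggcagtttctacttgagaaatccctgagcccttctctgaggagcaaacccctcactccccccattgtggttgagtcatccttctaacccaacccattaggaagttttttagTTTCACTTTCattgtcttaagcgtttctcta
Gbp5: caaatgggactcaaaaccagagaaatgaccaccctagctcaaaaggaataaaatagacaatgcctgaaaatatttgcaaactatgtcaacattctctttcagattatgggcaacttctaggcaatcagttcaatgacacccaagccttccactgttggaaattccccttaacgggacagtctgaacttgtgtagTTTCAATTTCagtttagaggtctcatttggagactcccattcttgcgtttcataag
Ifi44: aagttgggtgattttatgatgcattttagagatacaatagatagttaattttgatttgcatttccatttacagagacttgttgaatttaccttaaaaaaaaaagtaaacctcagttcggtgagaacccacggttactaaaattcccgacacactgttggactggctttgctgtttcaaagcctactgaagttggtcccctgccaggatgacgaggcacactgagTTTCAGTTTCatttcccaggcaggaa
These stretches lie at chr2:234005477-234005726 on the plus strand for Gbp2, at chr2:233910749-233910998 on the plus strand for Gbp5 and at chr2:243303841-243304090 on the minus strand for Ifi44. The core searched was GAAA, any 2 bases and GAAA again, on either strand, and in all 3 genes it reads on the strand opposite to the gene. It spans bases -31 to -22 from the start in Gbp2, -56 to -47 in Gbp5 and -26 to -17 in Ifi44. In each the core continues into a longer form that ends in CT. Ifi44 holds a second core after its start, at bases 27 to 36. A match is a description of letters and does not show that a factor binds.

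Sites from 8 other genes are shown to compare the core across roles. They come from an RNA sensor, from antiviral effectors, from a GTPase and from both measured genes of antigen transport, none of which passed the test. Each line gives 30 bases of the gene's strand with the core nearest the start in capitals.
Ifih1: gaagagaatcGAAACAGAAAccgatgtgtg
Ifit3: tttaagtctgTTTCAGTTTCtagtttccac
Oas1a: tcgggaaatgGAAACTGAAAatcttgttcc
Oas1b: ccgggaaatgGAAACTGAAAaccctattta
Oasl2: aaagctttggTTTCAGTTTCcaggcttgag
Irgm: tcaaggaataGAAACTGAAAccgactctct
Tap1: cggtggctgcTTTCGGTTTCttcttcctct
B2m: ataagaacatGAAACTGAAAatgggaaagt
In GRCr8 they lie at chr3:67684008-67684037 (minus strand), chr1:241527272-241527301 (plus), chr12:41330421-41330450 (plus), chr12:41395886-41395915 (minus), chr12:47383317-47383346 (minus), chr10:33742593-33742622 (minus), chr20:4668645-4668674 (minus) and chr3:129549170-129549199 (plus). Oas1a and Oas1b each hold a further core that overlaps the one in capitals from upstream. A core thus stands before genes with log2 fold changes, female over male, as different as those that the authors' deposited table gives for Oas1a, -0.69, and for Oasl2, -0.04.

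A RefSeq promoter window, which adds the 50 bases after the start, was present for 25 of the 32 genes. The ISRE core was found in 19 of these windows (76%), against 3.92% of all 33469 windows and 2.96% of the 10329 windows of genes with reads. The longer form was in 7 windows (28%), those of Gbp2, Gbp5, Ifi44, Ifi27, Oas1a, Oas1b and Bst2, against 0.278% of all windows. The GAS palindrome TTCNNNGAA, which reads the same on both strands, was in 9 windows (36%), against 8.87% of all windows. In Bst2 a core and a palindrome overlapped. A core within 100 bases before the start was present in 13 windows. No core was found in the windows of Irf1, Irf9, Stat2, Mx1, Oasl and Ifi47. The 16 genes with reads and a core had a median log2 fold change of -0.43, from -0.89 to -0.04, and 3 of them were called. The 6 without a core had a median of -0.10, from -0.84 to 0.35, and 0 were called. Both groups thus reached about as far below 0, and the difference between them was not tested.

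**Figure D1:**
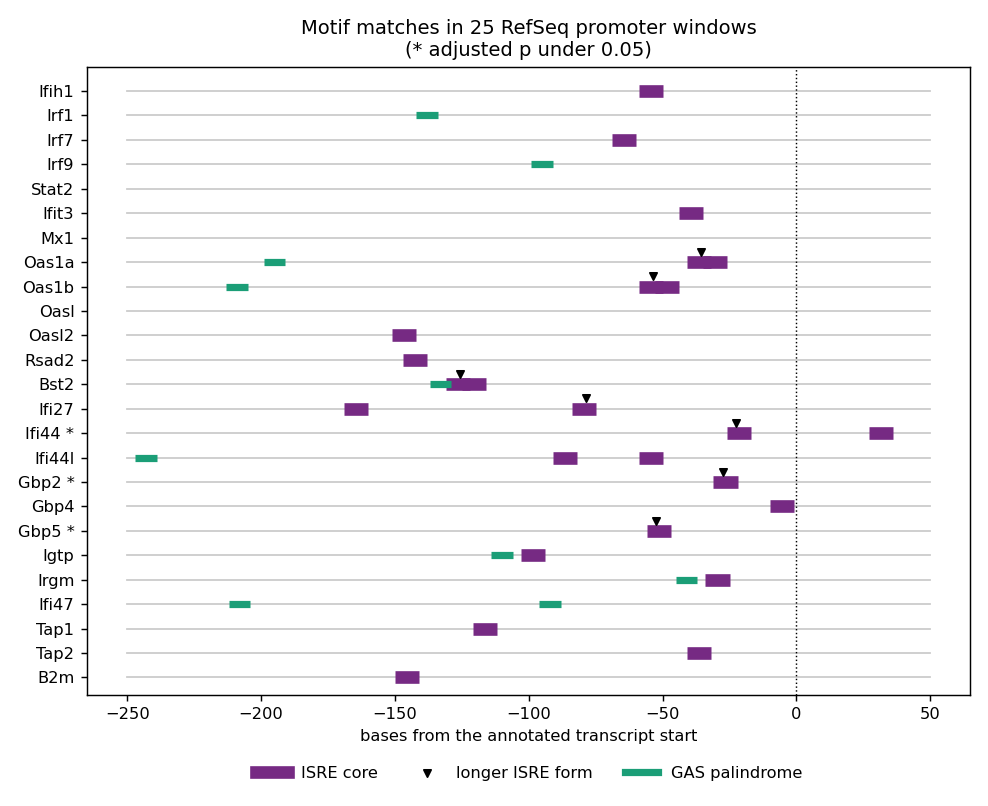
Positions of motif matches in the 25 RefSeq promoter windows, in bases from the annotated transcript start. Purple bars are ISRE cores, black triangles mark the longer form and green bars are GAS palindromes. Gbp2, Gbp5 and Ifi44 (asterisks) each hold a core within 60 bases before the start, and Ifi44 holds another after it.

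In the comparison of the sexes, Gbp2, Gbp5 and Ifi44 were lower in females, and no gene of the group was higher. By the adjusted p of the authors' deposited table, at a threshold of 0.05, 3 of 29 genes were called lower (10.3%) and 0 higher. Over all 13346 genes with reads, 7.76% were called lower in females, 6.71% higher and 14.5% in either direction. The 3 calls are thus close to the share called lower over all genes. At an unadjusted p under 0.05, 9 of the 29 were lower (31.0%) and 0 higher, against 14.6% lower and 12.7% higher over all genes. Among 9368 genes whose mean reached 40 normalized counts, a level that all 29 reached, 10.6% were called lower and 19.6% were lower at that unadjusted threshold. The log2 fold change was below 0 in 25 of 29 genes (86.2%), against 50.9% of all genes and 50.3% of those 9368 genes. The median log2 fold change was -0.27, against -0.0030 for those 9368 genes. The 29 values ran from -1.12 to 0.35. Fold changes and p-values here are the authors', group means carry no SD, and normalized counts are reads scaled for library depth.

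**Figure D2:**
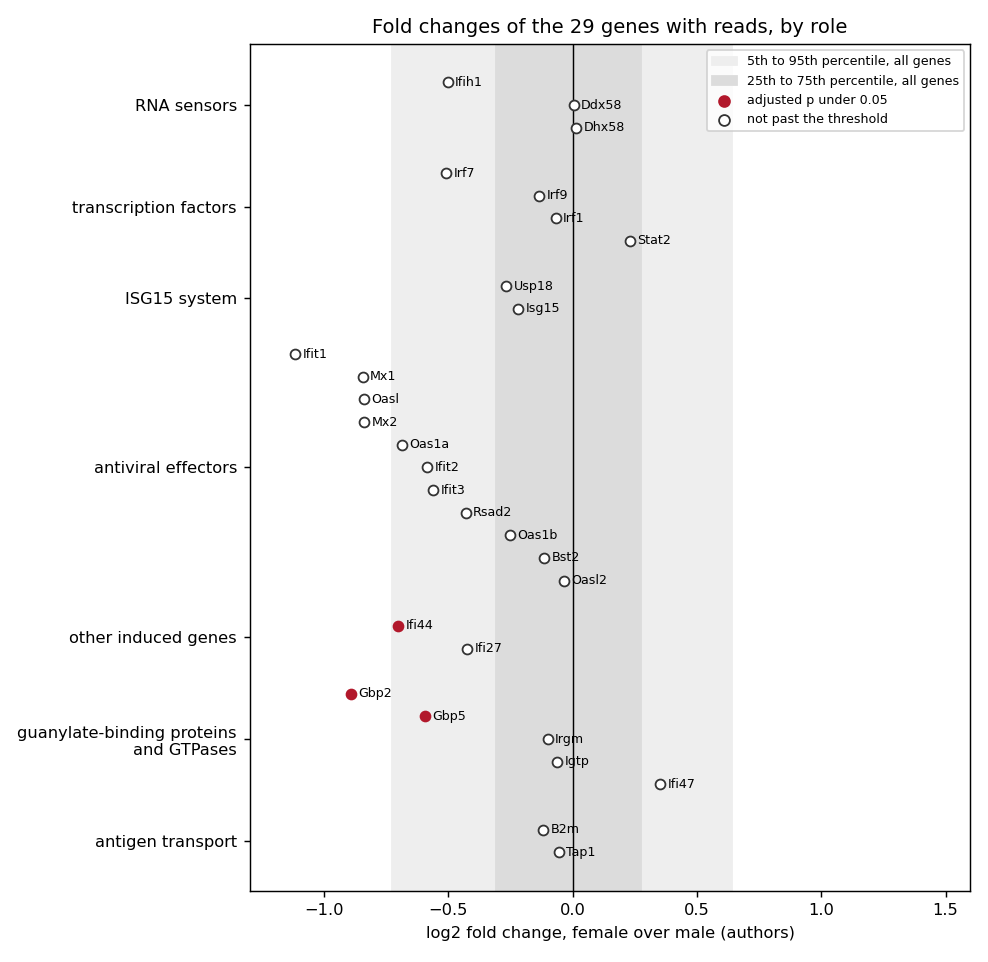
Log2 fold change of the female over the male mean for the 29 genes with reads, from the authors' deposited table, by role, 1 point for each gene. Grey bands give the 5th to 95th and the 25th to 75th percentile of 9368 genes whose mean reached 40 normalized counts. Filled points passed an adjusted p under 0.05, and 25 of 29 points lie left of 0.

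Fewer cells of a type and less RNA per cell cannot be told apart in such bulk samples. The 15 macrophage and leukocyte markers with reads were lower in sum in females, with summed means of 1568 in males and 1206 in females (ratio 0.769). Of these, 12 of 15 lay below 0, and only Mrc1, a mannose receptor of resident macrophages, was called. Over all genes with reads 50.9% lay below 0, 7.76% were called lower in females and 6.71% higher. The 1 call, 6.67% of the 15 markers, did not exceed the share called lower. The same shares over all genes stand beside the calls in the marker lists that follow. Mrc1 averaged 194 and 85.9 in the authors' deposited table (adjusted p = 0.00578). Over the 11 markers with reads recovered in each library, the sums ran from 424 to 669 normalized reads in males, and in females from 257 to 531. For T, NK and B cells 8 markers had reads, with sums from 19.0 to 96.3 in males and from 53.4 to 143 in females, none called, and Cd3d was listed at 0. Most of that sum was Cd4, whose means were 52.1 of a summed 66.2 in males and 87.8 of 98.0 in females. The sums thus follow 1 gene and are not read as a content of these cells. The 7 fibroblast markers with reads had summed means of 17975 and 8936, of which Col3a1 alone gave 10722 and 3915. The collagen genes Col1a1 and Col3a1 were called lower in females. Pdgfra, Dcn and Lum lay below 0 and Tcf21 and Thy1 above it, none of them called, and Col1a2 was listed at 0. The 10 endothelial markers summed to 22182 and 22558, with Vwf and Egfl7 higher and Emcn lower in females. The 9 myocyte markers with reads each had an overall mean of 111320 or more, and Myh6 and Ryr2 were called higher. Summed over the 9 markers, the means were 3553700 in males and 4275900 in females, a female over male ratio of 1.20. Myh6 alone gave 831770 and 1330900 of these sums, and so most of the difference. Of the 9 markers, 7 lay above 0 and 2 below. The part of these cell types in the results on interferon genes was not tested.

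The guanylate-binding proteins are large GTPases that interferon gamma induces and that act against intracellular microbes. Gbp2 averaged 862 normalized counts in males and 464 in females in the authors' deposited table. The male mean was 1.86 times the female mean by the authors' deposited table (log2 fold change -0.89, p = 7.89e-05, adjusted p = 0.00303). Gbp5, which also promotes inflammasome assembly, averaged 419 and 278 in the authors' deposited table. By the authors' deposited table the male mean was 1.51 times the female mean (log2 fold change -0.60, p = 0.00292, adjusted p = 0.0276). Gbp2 therefore lay beyond the 5th percentile of expressed genes, -0.73, whereas Gbp5 lay inside it. In the order of RefSeq genes they stand on chromosome 2 with 2 protein-coding genes between them, 1 of which is Gbp4.

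The immunity-related GTPases, which help to destroy the vacuoles of intracellular parasites, gave no calls. Irgm averaged 379 in males and 354 in females in the authors' deposited table (log2 fold change -0.10, adjusted p = 0.901). Igtp averaged 344 and 330 in the authors' deposited table (log2 fold change -0.06, adjusted p = 0.927). Ifi47 was the only one of these GTPases above 0, at 149 in males and 191 in females per the authors' deposited table (log2 fold change 0.35, adjusted p = 0.652). Across the 5 measured genes of this class 2 were lower and 3 were not called. Over all genes 7.76% were called lower, and 10.6% of genes whose mean reached 40 normalized counts. A count among 5 genes is not read as a result about the class. Whether the guanylate-binding genes differ from the other GTPases in their fold change was not tested.

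Ifi44, an interferon-induced cytoplasmic protein, was lower in females. Its means were 544 in males and 335 in females in the authors' deposited table, 1.63 times as high in males (log2 fold change -0.70, p = 0.00354, adjusted p = 0.0312). Ifi27, an interferon-induced membrane protein, averaged 1472 and 1097 in the authors' deposited table (log2 fold change -0.42, adjusted p = 0.601). Of Ifi44l, the neighbour of Ifi44 in RefSeq order, only the promoter window was used here.

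The antiviral effectors were all below 0, and none passed the adjusted threshold. The 11 genes had a median log2 fold change of -0.59, from -1.12 to -0.04. Their summed means were 2697 in males and 1661 in females, a ratio of 0.616. At an unadjusted p under 0.05 there were 4 of the 11, namely Ifit1, Ifit2, Mx2 and Oasl, against 14.6% of all genes lower at that threshold and 19.6% of genes whose mean reached 40 normalized counts.

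The IFIT proteins bind foreign or improperly capped RNA and hold back its translation. Ifit1 had the lowest fold change of the 29 genes, with means of 555 in males and 256 in females in the authors' deposited table. The authors' deposited table thus puts it 2.17 times as high in males (log2 fold change -1.12, p = 0.0445, adjusted p = 0.170). Ifit1 had a lower fold change than Gbp2 and a larger p, so the size of a difference in means and its p did not run together here. Ifit2 averaged 363 and 242 in the authors' deposited table (log2 fold change -0.59, p = 0.0271, adjusted p = 0.120). Ifit3 averaged 266 and 181 in the authors' deposited table (log2 fold change -0.56, adjusted p = 0.251). The 3 genes stand together on chromosome 1, with Ifit2 and Ifit3 next to each other.

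Mx1 and Mx2 encode dynamin-like GTPases that block viruses. For Mx2 the means were 594 in males and 332 in females in the authors' deposited table (log2 fold change -0.84, p = 0.0466, adjusted p = 0.175). For Mx1 they were 137 and 76.2 in the authors' deposited table (log2 fold change -0.84, p = 0.120, adjusted p = 0.330). The pair stands on chromosome 11 with 1 protein-coding gene between them and had nearly the same fold change. The sources used here do not say how reads shared by such similar copies were assigned, which bears on the Ifit and Oas genes too.

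The OAS enzymes sense double-stranded RNA and make an oligoadenylate that switches on RNase L, and the OAS-like proteins are their relatives. Oasl averaged 159 in males and 88.9 in females in the authors' deposited table (log2 fold change -0.84, p = 0.0337, adjusted p = 0.141). Oasl2, its direct neighbour on chromosome 12, averaged 89.1 and 86.9 in the authors' deposited table (log2 fold change -0.04, adjusted p = 0.961). These neighbours thus had quite different fold changes, a difference that was not tested. Oas1a averaged 104 and 64.8 in the authors' deposited table (log2 fold change -0.69, adjusted p = 0.378). Oas1b averaged 76.6 and 64.3 in the authors' deposited table (log2 fold change -0.25, adjusted p = 0.726).

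Of the remaining effectors, Rsad2 encodes viperin, an enzyme that makes a chain-terminating nucleotide. Its means were 309 in males and 229 in females in the authors' deposited table (log2 fold change -0.43, adjusted p = 0.329). Bst2 encodes tetherin, which holds budding virions at the cell surface. Its means were 43.9 and 40.6 in the authors' deposited table (log2 fold change -0.11, adjusted p = 0.935).

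**Figure D3:**
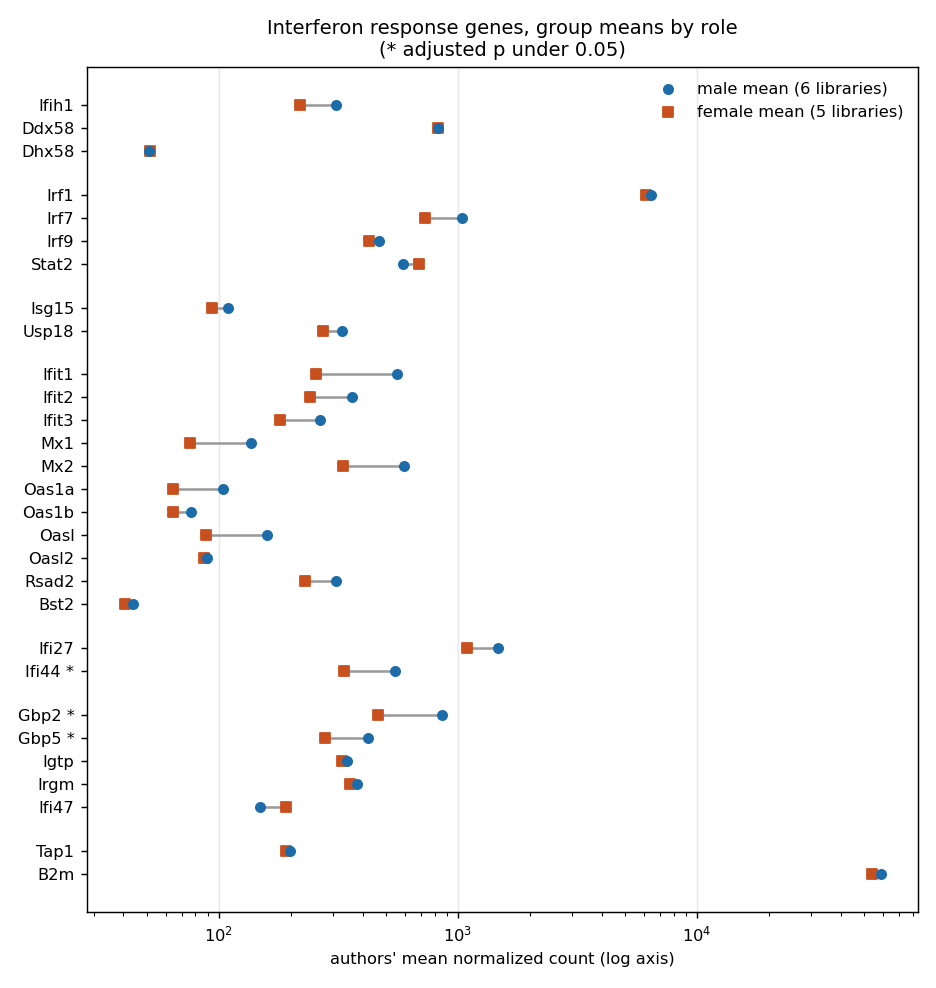
Mean normalized count in the male libraries (circles, 6 libraries) and the female libraries (squares, 5 libraries) for each of the 29 genes with reads, grouped by role, on a log axis, from the authors' deposited table. Levels of different genes are not per length and are not compared, and a line joins the means of 1 gene. Gbp2, Gbp5 and Ifi44 (asterisks) passed an adjusted p under 0.05.

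None of the 3 RNA sensors was called. Ifih1, which encodes MDA5, a sensor of long double-stranded RNA, averaged 311 in males and 219 in females in the authors' deposited table (log2 fold change -0.50, p = 0.0158, adjusted p = 0.0839). It was the only gene of the 29 that passed an adjusted p under 0.1 and not 0.05. At that looser threshold 4 genes were lower and 0 higher, and over all genes 11.1% were called lower, 9.41% higher and 20.5% in either direction. Ddx58, which encodes RIG-I and is an older symbol in RefSeq, averaged 823 and 825 in the authors' deposited table (log2 fold change 0.0032, adjusted p = 1). Dhx58, which encodes the regulator LGP2, averaged 51.1 and 51.6 in the authors' deposited table (log2 fold change 0.01, adjusted p = 0.963).

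Among the transcription factors, Irf7 had an unadjusted p under 0.05 and none of the 4 was called. Irf7, the factor that amplifies type I interferon production, averaged 1040 in males and 730 in females in the authors' deposited table (log2 fold change -0.51, p = 0.0318, adjusted p = 0.135). Irf1, an early factor of the interferon gamma response, averaged 6405 and 6108 in the authors' deposited table (log2 fold change -0.07, adjusted p = 0.944). The DNA-binding and STAT parts of the type I factor complex lay on opposite sides of 0. Irf9 averaged 467 and 425 in the authors' deposited table (log2 fold change -0.14, adjusted p = 0.768). Stat2 averaged 589 and 690 in the authors' deposited table (log2 fold change 0.23, adjusted p = 0.445).

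Isg15 encodes a ubiquitin-like protein that is attached to other proteins, and Usp18 encodes the protease that removes it and also damps the type I receptor. Isg15 averaged 110 in males and 94.1 in females in the authors' deposited table (log2 fold change -0.22, adjusted p = 0.791). Usp18 averaged 328 and 273 in the authors' deposited table (log2 fold change -0.27, adjusted p = 0.540). Neither passed the test.

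The genes of antigen transport showed no call. Tap1 encodes a chain of the transporter that carries peptides into the endoplasmic reticulum, and its means were 199 in males and 191 in females in the authors' deposited table (log2 fold change -0.06, adjusted p = 1). B2m encodes the light chain of MHC class I, and its means were 58645 and 54038 in the authors' deposited table (log2 fold change -0.12, adjusted p = 0.641). Tap2, the partner chain, was listed at 0, and RefSeq gives Tap2 also as an older symbol of Tap1. The listing at 0 is therefore not read as a level.

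Values in single libraries could be recovered from the digits of the means for 5 of the 29 genes. The libraries are known by sex and by a letter in order of falling size factor, from 1.173 in male a to 0.811 in male f, and not by replicate number. The 3 called genes lie above the means at which reads can be recovered, so their spread between libraries is not shown. The exact permutation test (two-sided, 462 regroupings) cannot go below p = 0.0022 here, and none of the 5 tests passed 0.05. In the limma fit over 2214 genes with recovered reads, 0 genes passed an adjusted p under 0.05, 345 had an unadjusted p under 0.05 (15.6%), and the smallest adjusted p was 0.0547. The authors' test called 96 of the same genes (4.34%).

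Isg15 in males a to f was 135, 78.7, 54.3, 139, 176 and 75.2 normalized reads, and in females a to e it was 99.5, 79.7, 66.0, 125 and 99.8. The male libraries thus spread more widely than the female ones, and the groups overlapped. The means were 110 ± 47.1 (SD, n = 6) and 94.1 ± 22.6 (SD, n = 5), with an exact permutation p of 0.515 and a limma adjusted p of 0.878.

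Oas1b was 89.5, 83.3, 36.2, 75.4, 118 and 56.7 normalized reads in males a to f, and 51.1, 66.1, 61.2, 76.1 and 66.9 in females a to e. All 5 females fell within the range of the males. The means were 76.6 ± 28.2 (SD, n = 6) and 64.3 ± 9.12 (SD, n = 5), with an exact permutation p of 0.398 and a limma adjusted p of 0.841.

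Oasl2 was 94.6, 89.6, 63.8, 145, 91.5 and 50.5 normalized reads in males a to f, and 46.7, 91.4, 96.6, 110 and 89.5 in females a to e. Male d was the highest and female a the lowest, and the groups overlapped. The means were 89.1 ± 32.4 (SD, n = 6) and 86.9 ± 23.8 (SD, n = 5), with an exact permutation p of 0.864 and a limma adjusted p of 0.987.

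Bst2 was 63.9, 29.0, 28.6, 54.7, 36.6 and 50.5 normalized reads in males a to f, and 41.4, 28.1, 45.9, 54.5 and 32.9 in females a to e. Libraries of both sexes lay near the low and the high end. The means were 43.9 ± 14.7 (SD, n = 6) and 40.6 ± 10.5 (SD, n = 5), with an exact permutation p of 0.660 and a limma adjusted p of 0.918.

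Dhx58 was 39.2, 46.2, 31.4, 65.1, 69.6 and 55.5 normalized reads in males a to f, and 85.5, 46.2, 67.9, 57.6 and 1.03 in females a to e. Female e stood apart with a single read, whereas the other females had from 51 to 97 reads. The means were 51.1 ± 14.9 (SD, n = 6) and 51.6 ± 31.8 (SD, n = 5), with an exact permutation p of 0.976 and a limma adjusted p of 0.749.

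Across these 5 genes some libraries recurred at the ends of the range. Male c was the lowest male in Dhx58, Isg15, Oas1b and Bst2, and males c and f were the lowest males in Isg15, Oas1b and Oasl2. Female d was the highest female in Isg15, Oas1b, Oasl2 and Bst2. Summed over the 5 genes, the libraries ran from 214 to 492 normalized reads in males and from 290 to 424 in females, so the female range lay within the male range.

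**Figure D4:**
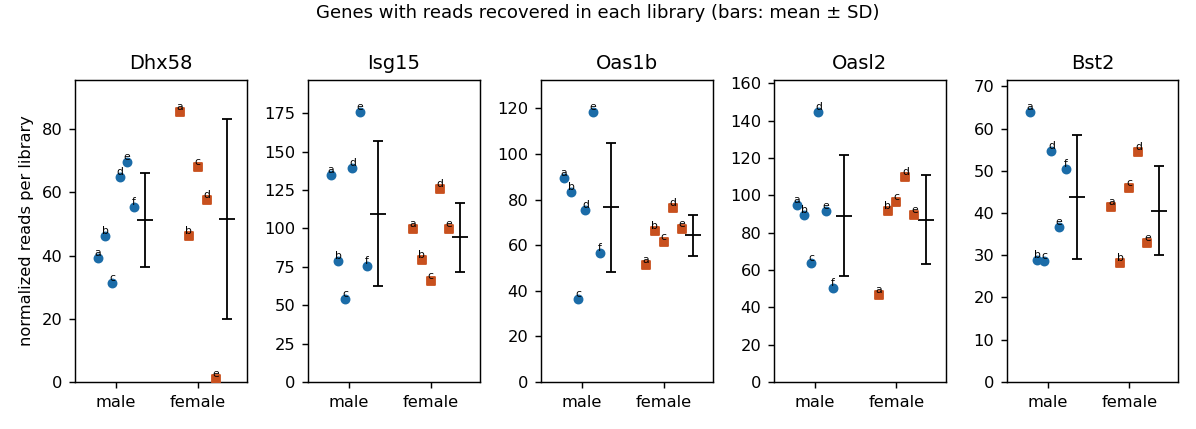
Normalized reads in each library for Dhx58, Isg15, Oas1b, Oasl2 and Bst2, recovered from the digits of the deposited means. Circles are male and squares female libraries with their letters, and bars give the mean and SD. The sexes overlap in all 5 genes, and female e is at 1.03 in Dhx58.

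Other genes of interferon signalling and antigen presentation, chosen by their known roles, were mixed in direction. Of 122 listed genes, 101 were in the table and 95 had reads, of which 5 were lower in females (5.26%) and 3 higher. Over all genes 7.76% were called lower and 6.71% higher, so the calls in this list did not exceed that share in either direction. Their log2 fold changes lay below 0 in 50 of 95 (52.6%), and the median was -0.03, against -0.0099 over all genes. The 29 genes described above, with 86.2% below 0, were thus more one-sided than this wider list, a difference that was not tested.

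Of 9 listed ligand genes, 6 were in the table. Ifnb1 and Ifng had reads, and neither was called. Ifnb1 averaged 2.21 in males and 0.181 in females in the authors' deposited table, and Ifng of 0 and 2.68. Ifne, Ifnl1 and Ifnl3 were not in the table, and Ifna1, Ifna2, Ifna4 and Ifnk were listed at 0, which is not read as a level.

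Of the 8 receptors and kinases with reads, Jak2 alone was called. Jak2, a kinase of the interferon gamma receptor, averaged 842 in males and 462 in females in the authors' deposited table (log2 fold change -0.87, adjusted p = 0.00464). Jak1, which serves both receptor types, averaged 7645 and 7671 per the authors' deposited table (log2 fold change 0.0048). Ifnar1, a chain of the type I receptor, averaged 2394 and 2627 per the authors' deposited table (log2 fold change 0.13). Neither Jak1 nor Ifnar1 was called.

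Among 11 STATs, brakes and other IRFs, 1 was lower and 1 higher. Ptpn2, a phosphatase that acts on JAKs and STATs, averaged 836 and 577 in the authors' deposited table (log2 fold change -0.54, adjusted p = 0.0139). Socs3, a feedback inhibitor of cytokine receptors, averaged 3341 and 4548 in the authors' deposited table (log2 fold change 0.44, adjusted p = 0.0218). Both are known brakes, and they moved in opposite directions. Ptpn11 and Stat3 stood at -0.27 and 0.20 as log2 values in the authors' deposited table and were not called.

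In the sensing pathway 12 genes had reads, 9 of them below 0, and 1 was called. Tlr3, an endosomal receptor for double-stranded RNA, averaged 218 and 122 in the authors' deposited table (log2 fold change -0.84, adjusted p = 0.00605). The adaptors Mavs and Myd88 stood at 0.21 and -0.14 as log2 values in the authors' deposited table and were not called.

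Other interferon-induced genes numbered 33 with reads, 18 below 0 and 15 above, with 1 called in each direction. Eif2ak2, the kinase PKR that halts translation on double-stranded RNA, averaged 1566 in males and 815 in females in the authors' deposited table (log2 fold change -0.94, adjusted p = 4.12e-05). Adar, which edits double-stranded RNA and keeps it from the sensors, averaged 1414 and 2168 in the authors' deposited table (log2 fold change 0.62, adjusted p = 0.0011). These genes of double-stranded RNA handling thus moved in opposite directions. Apol9a and Cxcl11, a chemokine gene, stood at 0.26 and -0.22 as log2 values in the authors' deposited table and were not called.

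Genes of peptide supply and MHC class I loading gave a call on each side. The 5 immunoproteasome genes all lay above 0 with none called, and Psme1 and Psme2, of its activator, stood at 0.09 and 0.17 as log2 values in the authors' deposited table. Tapbp, the tapasin gene that links MHC class I to the peptide transporter, averaged 391 and 708 in the authors' deposited table (log2 fold change 0.86, adjusted p = 0.0011). Canx, a chaperone of new glycoproteins, averaged 17966 and 11628 in the authors' deposited table (log2 fold change -0.63, adjusted p = 0.00267). Calr, its soluble relative, stood at 0.17 as log2 values in the authors' deposited table and was not called. Of the 17 genes of this class with reads, 9 lay below 0 and 8 above, and 15 were not called. At the authors' unadjusted p under 0.05, 3 were higher, Tapbp, RT1-A2 and RT1-CE5, and 1 was lower, Canx. Over all genes 12.7% were higher and 14.6% lower at that threshold. The class I chains RT1-A2 and RT1-CE5 stood at log2 fold changes of 0.73 and 0.77 and were not called. Tap1 and B2m stood at -0.06 and -0.12. The 7 MHC class II genes with reads gave no call, with Cd74 and RT1-Da at 0.21 and -0.01 as log2 values in the authors' deposited table.

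**Figure D5:**
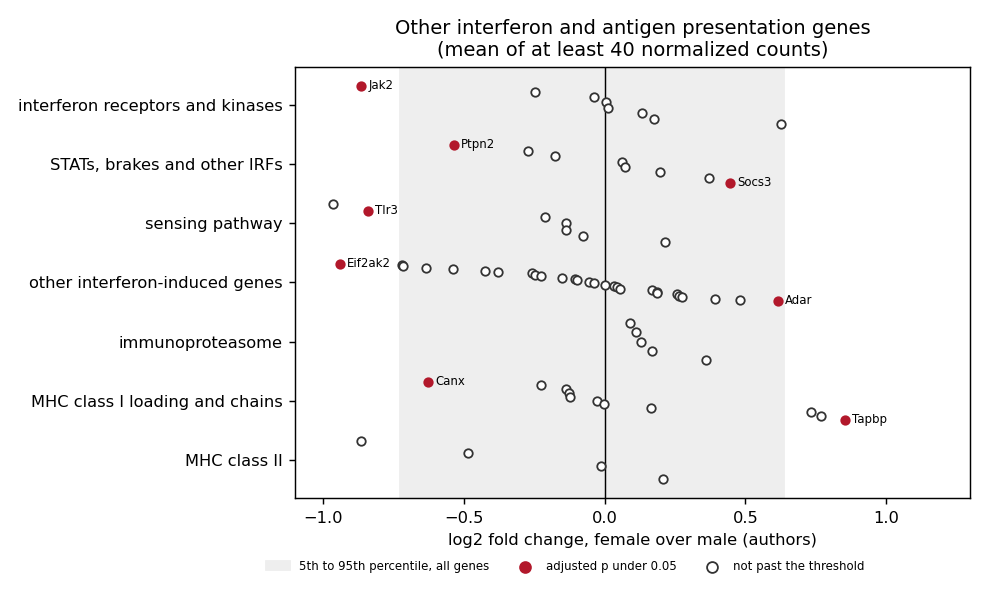
Log2 fold change of the female over the male mean, from the authors' deposited table, for other interferon and antigen presentation genes with a mean of at least 40, 1 point for each gene. The grey band gives the 5th to 95th percentile of all genes with such a mean, and filled points passed an adjusted p under 0.05. Jak2, Ptpn2, Tlr3, Eif2ak2 and Canx lie below 0 and Socs3, Adar and Tapbp above it.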

How the data were processed

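FastQC, DESeq, HTSeq 0.6.1, TopHat2 2.0.12, Trimmomatic 0.32 and the build rn6 are named in the submitters' processing notes. Order, settings, annotation and use of strand are not given in the sources used here. Per the labels, stranded libraries were made from 650 ng of total RNA whose integrity number was 9 or more. For each gene the authors deposited a mean normalized signal (reads over size factors) in all libraries and in groups A and B, their fold as a linear ratio and its log2 value, a p-value and its adjusted value. In all 13346 genes with reads the overall mean weighted A by 6 and B by 5, so A was read as male. The adjusted p matched Benjamini-Hochberg over these genes.

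Genes and lists were chosen with earlier results of these data known. Full values were given for genes with an unadjusted p under 0.05, the highest means of each role and those with recovered reads. In the other lists, genes past an adjusted p under 0.05 and the highest means were named.

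From the digits of group means up to 150, the whole reads of each library were worked out. Of 5405 genes searched, 5041 had exactly 1 solution, 364 more than 1 and 0 none, and recovered reads totalled 88742 to 127643 per library, which is not their depth. The step was tested on simulated data. limma 3.58.1 in R 4.3.3 was run on log2 of normalized reads plus 1 at a mean of at least 10, and was tested on simulated data. All 32 symbols were matched to RefSeq (GRCr8), 1 as an older symbol. Since the build differs, its table was used for order and names, and promoter sequences are in GRCr8 coordinates. Some genes of the lists are not reported here.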

Additional observations from a re-analysis of the deposited data

Results flagged for a closer look

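In 62 groups of recovered libraries of 1 sex, 3 had a library far from the rest, where chance gives about 1 in 20. The 3 found are thus close to the number that chance gives. Ikbke, a kinase of the sensing pathway, was 25.8 normalized reads in male d, and the nearest male was at 7.24. Oas1k, a relative of Oas1a, was 22.6 in female e, and the nearest female was at 50.7. RT1-M3-1, an MHC class I gene, was 101 in male d, and the nearest male was at 48.8. None of these genes was called between the sexes in the authors' deposited table.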

How the results depend on the processing

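The count of genes called lower was 3 when adjusted over genes with a mean of at least 10 or 50, 4 at an adjusted p under 0.1 and 9 at an unadjusted p under 0.05, and the count of genes called higher was 0 in each. In the wider list of 95 genes the unadjusted threshold gave 11 lower (11.6%) and 8 higher, against 14.6% and 12.7% of all genes. The median of -0.27 moved to -0.35 with a mean of at least 50 and to -0.26 when recentred. The longer ISRE form cut the windows with a match from 19 to 7. On the scale of log2(normalized read + 1) and + 0.5, the difference in Dhx58 changed sign (exact permutation p = 0.794 and 0.790). Leaving out 1 library at a time gave exact permutation p from 0.233 to 0.968 for Dhx58, 0.556 to 0.929 for Oasl2, 0.390 to 0.976 for Bst2, 0.270 to 0.921 for Isg15 and 0.0952 to 0.738 for Oas1b, and the sign changed in the first 3. Causes were not tested. limma called 0 of the 5 genes in each setting run. Over all its genes it called 2 with no filter on the mean and up to 4 without female b or female c. No paired analysis was possible because the table holds group means and the recovered libraries carry no replicate number, and libraries could not be left out of the authors' test. Values per library were recovered for 5 of the 29 genes, none of them called.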

Other observations

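Of 33 genes of the wider list with recovered reads, Tlr4, Tlr7 and Nmi are given here because of their values, and so after those were seen. Tlr4, a receptor for bacterial lipopolysaccharide, was 52.0, 57.0, 76.2, 62.0, 57.4 and 86.3 normalized reads in males a to f, and 20.3, 42.5, 42.1, 24.7 and 37.0 in females a to e. The sexes did not overlap, and the share of all recovered genes without overlap is not given here. The means were 65.1 ± 13.3 (SD, n = 6) and 33.3 ± 10.3 (SD, n = 5), with an exact permutation p of 0.0022, the smallest this design can give, and a limma adjusted p of 0.149. Tlr7, an endosomal receptor for single-stranded RNA, was 30.3 ± 9.14 (SD, n = 6) and 12.2 ± 10.1 (SD, n = 5), with an exact permutation p of 0.0108 and a limma adjusted p of 0.247. Nmi, an interferon-induced partner of STATs, was 118 ± 31.1 (SD, n = 6) and 72.0 ± 31.9 (SD, n = 5), with an exact permutation p of 0.0411 and a limma adjusted p of 0.272. All 3 missed the adjusted threshold in the authors' deposited table too (adjusted p of 0.0787, 0.117 and 0.0758). In the limma fit over 2214 genes with recovered reads, 15.6% had an unadjusted p under 0.05, so low unadjusted values were common.

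Reads of the ligands came from few libraries. The normalized reads of Ifng, 13.4, were all in female e, and those of Ifnb1 were 5.11 in male a, 8.15 in male b and 0.905 in female b.

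Some MHC chains were near 0 in some libraries of both sexes. RT1-CE16, a class I gene, was 72.4, 87.8 and 43.9 normalized reads in males c, d and e and 61.5 and 105 in females b and c, and 0 in the other libraries. RT1-Bb, a class II chain, was 56.2, 77.4 and 204 in those males and 85.1 and 69.9 in those females, 1.70 in male a and 0 in the other libraries. RT1-Ba, its partner chain, was 126, 133, 165, 119 and 141 in the same libraries and from 0 to 32.9 in the others.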
